A study of Mus musculus with 46 samples.

Results

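The 9 genes described here encode the enzymes that write, maintain and remove DNA methylation in the mouse. They are the maintenance methyltransferase Dnmt1 and its partner Uhrf1, the de novo methyltransferases Dnmt3a and Dnmt3b with their cofactor Dnmt3l, the methylcytosine dioxygenases Tet1, Tet2 and Tet3, and the thymine DNA glycosylase Tdg. They were chosen by symbol, not by a cut on their values, though earlier results of these data were known. All 9 were found among the 37108 genes of the gene table and, as 65 of 106520 transcripts, in the transcript table.

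Methylation of cytosine in CpG dinucleotides is copied to the new strand after replication by Dnmt1, which Uhrf1 brings to hemimethylated DNA. Dnmt3a and Dnmt3b methylate unmodified CpGs, and Dnmt3l, which has no catalytic activity, assists both in germ cells and pluripotent cells. Tet enzymes oxidise 5-methylcytosine, and Tdg excises the further oxidised bases so that they are replaced by unmodified cytosine. Fibroblasts carry a highly methylated genome, mouse pluripotent cells grown with kinase inhibitors and leukaemia inhibitory factor carry a weakly methylated one, and pluripotency genes such as Oct4 are methylated in fibroblasts.

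RNA was sequenced from mouse embryonic fibroblasts (MEF) that were being reprogrammed to induced pluripotent stem cells (iPSC) by retroviral Oct4 together with a Nanog construct. NanogBiD (NanogN70 in the labels) carries in front of Nanog the part of SS18 that binds the remodeller ATPase BRG1, and NanogWT is native Nanog. Both came on pMXs retroviral vectors. The fibroblasts came from embryos of OG2 males, which carry an Oct4-GFP reporter, mated to 129 females, and D0 is the end of viral infection, after which cells were kept in iCD3 medium. The medium was changed to iCD3 at D0, so in changes from D0 to D7 the day and the medium cannot be told apart. The methods place the switch to N2B27 with 2iL at 7 days or another set time, so the same holds for changes from D7 to D12. Established iPSC and mES were kept in N2B27 with 2iL and fibroblasts in DMEM with serum. Cell type and medium therefore cannot be told apart between them. The gene table held 31 time-course libraries (8 days from D0 to D12, with 2 per combination and day and 1 for NanogBiD at D8), 2 MEF libraries and 1 library of OG2 mouse embryonic stem cells (mES). The transcript table held 12 iPSC libraries, 6 per combination, with the same MEF and mES libraries quantified a second time. The iPSC libraries are labelled iPSC1 or iPSC2, called lines here, though the labels do not say what these names stand for. Every time-course sample received both Oct4 and a form of Nanog, so no library shows Oct4 alone or an empty vector. Values are FPKM, fragments scaled by model length and by library, so levels of different genes can be set side by side within a table but not between the tables. The labels do not say that replicates came from separate cultures, so p-values measure only the spread between these samples.

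The libraries were alike in 2 respects and unlike in another. Same-day replicates correlated at 0.961 to 0.990 (Pearson r across genes) and 12442 to 14431 genes reached 1 FPKM per time-course library. Relative depth, read from the value of single reads, ranged from 1.85 to 3.18 among the 6 NanogWT libraries made on D8, D10 and D12 and from 0.811 to 1.101 among the remaining 28, so at D8, D10 and D12 depth and combination cannot be told apart. Depth was unknown in the transcript table. Markers went with the labels of MEF and mES: the summed FPKM of 12 fibroblast markers was 6234 to 7253 in MEF and 8.30 in mES, and that of 11 pluripotent markers was 11.6 to 14.1 in MEF and 4030 in mES. Because the samples are bulk cultures, fewer cells expressing a gene and less of its RNA per cell cannot be told apart in any result below.

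The members lie on 7 chromosomes (GENCODE M21, GRCm38, the build named by the study as mm10). Dnmt1 is at chr9:20907209-20959888, Uhrf1 at chr17:56303321-56323486, Dnmt3a at chr12:3806007-3914443, Dnmt3b at chr2:153649450-153687730 and Dnmt3l at chr10:78041947-78063622. Tet1 is at chr10:62804570-62908996, Tet2 at chr3:133463679-133545139, Tet3 at chr6:83362373-83459084 and Tdg at chr10:82629828-82650799. Genes on the opposite strand overlap Dnmt3l (Aire, at its start), Tdg (Glt8d2, at its end), Dnmt3a (Dnmt3aos), Dnmt3b (Dnmt3bos), Tet2 (Gm42567) and Tet3 (B230319C09Rik), and the use of strand in the counting was not stated, so reads of these pairs cannot be told apart. Tdg is the most uncertain member: its processed pseudogene copies Tdg-ps2 and Gm9855 stood at 1.05 to 1.101 and 1.07 to 1.48 times its FPKM in the 34 libraries, so its value holds reads that could belong to any of them.

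The first promoters shown are those of the members whose levels were most alike over the time course. This pair belongs to the maintenance genes Dnmt1 and Uhrf1, and capitals mark an E2F-type motif (TTTCGCGC, TTTGGCGC or TTTCCCGC, searched on both strands), the motif of factors that drive genes of DNA replication. Each window is 300 bases that end just after a RefSeq start (GRCm38.p6), read 5′ to 3′ on the gene's strand: Dnmt1 chr9:20952574-20952873, minus strand, and Uhrf1 chr17:56304063-56304362, plus strand.

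Dnmt1: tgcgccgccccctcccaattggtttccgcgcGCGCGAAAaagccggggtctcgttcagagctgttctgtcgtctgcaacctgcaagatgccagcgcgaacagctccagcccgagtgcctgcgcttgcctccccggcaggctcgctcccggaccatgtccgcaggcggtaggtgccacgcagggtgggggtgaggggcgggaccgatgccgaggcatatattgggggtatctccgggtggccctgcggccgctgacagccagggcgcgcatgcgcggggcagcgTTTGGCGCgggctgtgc

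Uhrf1: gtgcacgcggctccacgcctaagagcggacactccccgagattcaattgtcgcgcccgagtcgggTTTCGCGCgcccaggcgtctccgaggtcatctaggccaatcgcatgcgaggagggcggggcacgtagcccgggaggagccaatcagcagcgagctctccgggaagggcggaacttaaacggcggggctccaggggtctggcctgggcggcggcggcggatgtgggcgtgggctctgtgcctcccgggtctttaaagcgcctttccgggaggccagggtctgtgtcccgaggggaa

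The Dnmt1 window held 2 such motifs and the Uhrf1 window 1. The other 14 of the 16 windows that RefSeq gives for the 9 members held none, including the second Uhrf1 window and the other 2 windows of Dnmt1. Of all 32851 promoter windows, 1.84% held the motif. A match is a description of letters and shows no binding.

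The second pair belongs to Dnmt3b and Dnmt3l, which appeared later in NanogBiD cells, and capitals mark CpG dinucleotides, the substrate of the enzymes themselves. The windows are Dnmt3b chr2:153649199-153649498 and Dnmt3l chr10:78049592-78049891, both on the plus strand.

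Dnmt3b: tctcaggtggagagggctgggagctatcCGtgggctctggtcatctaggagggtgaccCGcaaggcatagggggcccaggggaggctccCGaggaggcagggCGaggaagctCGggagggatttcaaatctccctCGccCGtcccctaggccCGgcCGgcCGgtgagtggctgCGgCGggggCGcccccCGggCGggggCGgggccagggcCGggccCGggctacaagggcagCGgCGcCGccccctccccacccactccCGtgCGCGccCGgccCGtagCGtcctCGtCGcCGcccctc

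Dnmt3l: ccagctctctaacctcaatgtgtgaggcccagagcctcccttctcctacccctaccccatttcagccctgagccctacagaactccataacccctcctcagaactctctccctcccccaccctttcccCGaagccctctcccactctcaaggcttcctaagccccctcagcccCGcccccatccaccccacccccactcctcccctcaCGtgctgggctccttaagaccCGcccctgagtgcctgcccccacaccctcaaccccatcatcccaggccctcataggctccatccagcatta

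The Dnmt3b window held 30 CpGs, as many as or more than were in all but 11.7% of the windows. The Dnmt3l window held 4, below the median of 7, and its other 2 windows held 6 and 3. Among the other members, the Tet2 window held 57 CpGs, a number that 0.152% of all windows reach, and the 3 Dnmt3a windows 46, 47 and 18. The octamer ATTTGCAT, which Oct4 recognises, was in none of the 16 member windows and in 1.74% of all windows, searched on both strands.

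In the starting fibroblasts the maintenance genes stood highest of the 9. Dnmt1 and Uhrf1 stood at 18.3 ± 1.90 and 18.3 ± 2.18 FPKM (SD, n = 2 MEF) and did not differ beyond their spread, Tdg followed at 13.1 ± 0.900, and Dnmt3a and Tet3 at 6.83 ± 1.38 and 6.83 ± 0.403 did not differ beyond theirs. Tet2 was at 2.42 ± 0.932, Dnmt3b at 0.624 ± 0.148 and Tet1 at 0.581 ± 0.128, while Dnmt3l was listed at 0 in both MEF libraries. The single mES library had another order, with Uhrf1 at 178 FPKM, Dnmt1 at 54.1, Dnmt3l at 36.4, Tet1 at 23.3, Tdg at 23.2, Tet2 at 20.2, Dnmt3b at 16.7, Dnmt3a at 5.35 and Tet3 at 3.72. Dnmt3a and Tet3 were the lowest of the 9 in mES. The mES library entered no test.

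**Figure D1:**
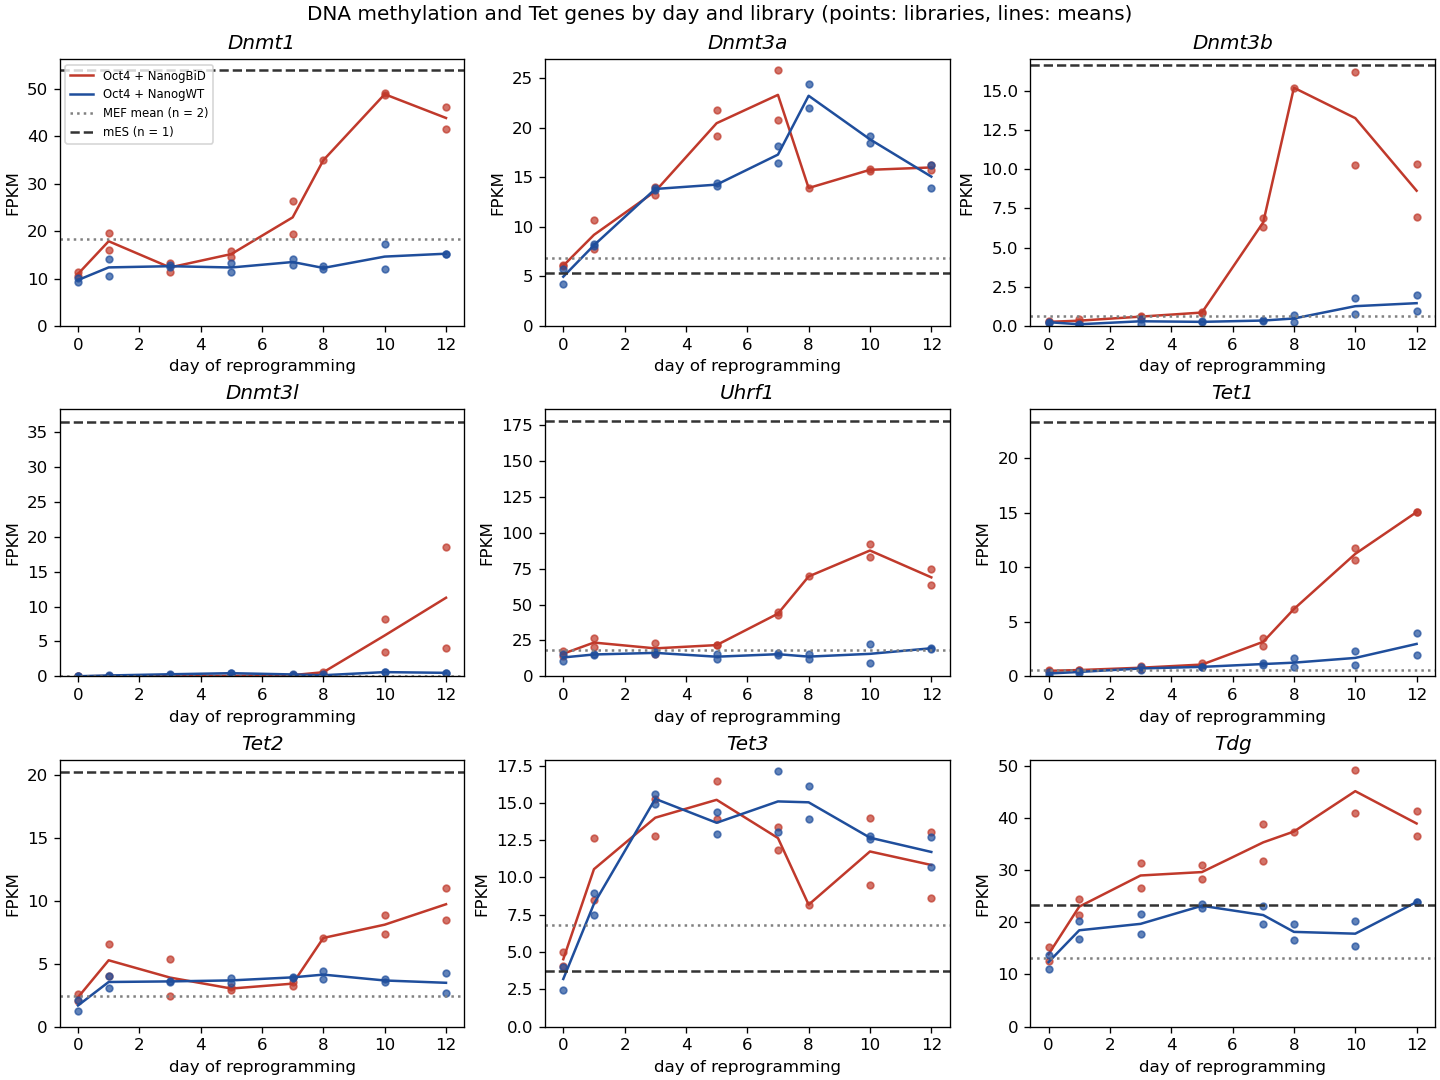
FPKM of each member (vertical axis, linear) against day of reprogramming (horizontal axis); points are single libraries, lines the means of Oct4 with NanogBiD (red, 2 libraries a day, 1 at D8) and Oct4 with NanogWT (blue, 2 a day), and horizontal lines the MEF mean and the mES library. Dnmt1, Uhrf1, Dnmt3b, Dnmt3l, Tet1 and Tet2 separate from D7 or later, Dnmt3a and Tet3 go up in both combinations.

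Up to D5 no member passed the test between the combinations. None of the 9 members was called between NanogBiD and NanogWT at D0, D1, D3 or D5, where 0.760%, 1.33%, 3.70% and 6.48% of the 16842 genes tested were called in either direction (limma on log2(FPKM + 1), Benjamini-Hochberg adjusted p under 0.05 and a 2-fold limit). At an unadjusted p under 0.05, the number of members was 0 at D0, 2 at D1 (Dnmt1, Uhrf1), 1 at D3 (Tdg) and 3 at D5 (Dnmt3a, Dnmt3b, Uhrf1). Of all 16842 genes tested, 2668, 2266, 3847 and 4911 had such a p at D0, D1, D3 and D5. The D5 difference of Dnmt3a, 0.49 ± 0.15 on the log2 scale (SE), had an adjusted p of 0.0258 and lay under the fold limit, as did the D3 difference of Tdg, 0.54 ± 0.17, with an adjusted p of 0.0466.

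Dnmt3a and Tet3 rose in both combinations over the first week. In NanogBiD cells Dnmt3a was at 6.15 and 6.00 FPKM at D0 and at 25.8 and 20.8 at D7, and in NanogWT cells at 4.20 and 5.74 and then at 18.2 and 16.4. The D7 libraries lie above the D0 libraries of the same combination without overlap, and above MEF and mES too, which was not counted over all genes. The change was 1.77 ± 0.15 with NanogBiD (adjusted p = 9.17e-09) and 1.62 ± 0.15 with NanogWT (adjusted p = 2.75e-08), and the test of the difference between these changes, 0.15 ± 0.21, did not call it (adjusted p = 0.702). Tet3, the Tet enzyme of oocytes and many somatic cells, was at 4.06 and 4.98 FPKM at D0 and 13.4 and 11.9 at D7 with NanogBiD, and at 2.43 and 3.97 and then 17.2 and 13.0 with NanogWT. It rose by 1.31 ± 0.22 (adjusted p = 9.24e-05) and 1.95 ± 0.22 (adjusted p = 7.55e-07), and the difference of these changes was -0.64 ± 0.32 (adjusted p = 0.19). Its highest mean was 15.2 FPKM at D5 with NanogBiD and 15.3 at D3 with NanogWT, against 3.72 in mES.

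After D7 neither gene returned to the mES level. Dnmt3a stood at 15.7 and 16.2 FPKM in the NanogBiD libraries of D12 and at 16.2 and 13.9 in those of NanogWT, against 5.35 in mES. Its difference between D12 and D7 in NanogBiD cells, -0.51 ± 0.15, had an adjusted p of 0.00793 and lay under the fold limit. Tet3 was at 8.65 and 13.0 FPKM at D12 with NanogBiD and at 12.7 and 10.7 with NanogWT, and the combinations overlapped. The D12 differences between the combinations were 0.08 ± 0.15 for Dnmt3a (adjusted p = 0.662) and -0.12 ± 0.22 for Tet3 (adjusted p = 0.679). At D8, the single NanogBiD library had 13.9 FPKM of Dnmt3a and 8.18 of Tet3, and the NanogWT libraries had 24.4 and 22.0 of Dnmt3a and 16.1 and 13.9 of Tet3.

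From D0 to D7, 6 of the 9 members rose with NanogBiD (Dnmt3a, Dnmt3b, Uhrf1, Tet1, Tet3, Tdg), against 12.7% of all genes called higher, and 2 with NanogWT (Dnmt3a, Tet3), against 12.0%. A further 4 members with NanogWT (Dnmt1, Tet1, Tet2, Tdg) passed the adjusted p alone, at 0.44 to 0.89 and adjusted p of 0.0013 to 0.0473, as did Dnmt1 with NanogBiD (0.98 ± 0.17, adjusted p = 9.9e-05). The counts of 6 and 2 were 7 and 5 with a pseudocount of 0.1 and 7 and 4 after rescaling to a common total. The median log2 change of the members was 1.31 and 0.75, beside 0.24 and 0.12 for all genes. The difference between the combinations in this change was called for 2 members, Dnmt3b and Uhrf1, against 5.20% of all genes called higher. Among all called genes the share that was higher in these changes was 67.3% with NanogBiD and 67.8% with NanogWT, and 48.1% and 54.5% after quantile normalization, which left the counts of members at 6 and 2.

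At D7, Dnmt3b and Uhrf1 were the called members between the combinations, against 5.79% of all genes called higher with NanogBiD. Dnmt3b, the de novo enzyme of the early embryo, was at 6.33 and 6.88 FPKM with NanogBiD and at 0.356 and 0.339 with NanogWT, a log2 difference of 2.50 ± 0.24 (adjusted p = 2.07e-07). It had been at 0.821 and 0.892 FPKM with NanogBiD at D5, against a mean of 0.264 with NanogWT. Most of its rise to D7 with NanogBiD thus came after D5. The change from D0 differed between combinations by 2.47 ± 0.34 (adjusted p = 4.67e-05). Uhrf1 was at 44.8 and 42.7 FPKM with NanogBiD and at 16.3 and 14.6 with NanogWT, a difference of 1.45 ± 0.27 (adjusted p = 0.000429). Its change from D0 to D7 differed by 1.19 ± 0.38 (adjusted p = 0.0393), a call that was lost in the fit of the compared groups alone, in the fit with no filter on low values and in 6 of 8 fits without a single library (NanogBiD D0 replicate 2, NanogWT D0 replicate 1 and each of the 4 D7 libraries) (adjusted p over all alternatives 0.0211 to 0.148). Tet1, Dnmt1, Tdg and Dnmt3a differed by 0.97 ± 0.24, 0.71 ± 0.17, 0.70 ± 0.17 and 0.40 ± 0.15 at adjusted p of 0.00421, 0.00364, 0.00362 and 0.0444, under the fold limit. Tet1 was at 2.79 and 3.55 FPKM against 1.05 and 1.201.

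**Figure D2:**
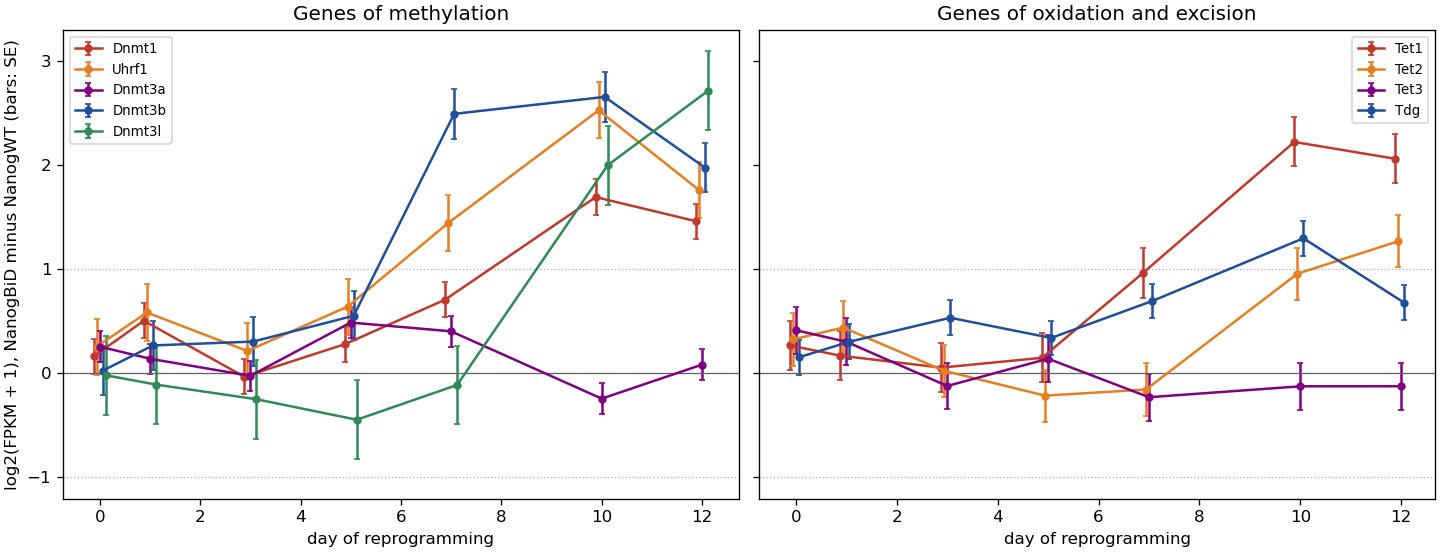
Log2(FPKM + 1) of NanogBiD minus NanogWT (vertical axis) for each member by day (horizontal axis), from the time-course model with 2 libraries per group; bars are SE, dotted lines the 2-fold limit, and D8 is left out because NanogBiD had 1 library. Dnmt3b leads at D7 with 2.50, Dnmt3l is near 0 at D7 and at 2.72 at D12, and Dnmt3a and Tet3 end at 0.08 and -0.12.

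By D10 and D12 the NanogBiD cells carried more RNA of most members. Called higher were 6 of 9 at D10 (Dnmt1, Dnmt3b, Dnmt3l, Uhrf1, Tet1, Tdg), against 15.4% of all genes, and 6 of 9 at D12 (Dnmt1, Dnmt3b, Dnmt3l, Uhrf1, Tet1, Tet2), against 13.5%. No member was called lower at either day. Dnmt3l, counted on both days, passed the filter on low values only through the NanogBiD libraries of D10 and D12. The median log2 difference of the members at D12 was 1.46, beside 0.17 for all genes. The NanogWT libraries of these days are the deep ones described above.

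The maintenance genes had their highest mean at D10 with NanogBiD and at D12 with NanogWT, and D10 was not tested against D12. Uhrf1 was at 92.1 and 83.4 FPKM with NanogBiD at D10 and at 74.7 and 63.4 at D12, and the NanogWT libraries were at 9.13 and 22.2 and at 19.12 and 20.02. All 4 NanogBiD libraries lie above all 4 NanogWT libraries, by 2.53 ± 0.27 at D10 (adjusted p = 2.07e-07) and 1.76 ± 0.27 at D12 (adjusted p = 2.04e-05), and below the 178 of mES. Separation of this kind was not counted over all genes. Dnmt1 was at 48.7 and 49.1 FPKM with NanogBiD at D10 and at 46.2 and 41.6 at D12, close to the 54.1 of mES, and at 11.9 and 17.4 and at 15.2 and 15.2 with NanogWT. The differences were 1.70 ± 0.17 (adjusted p = 9.56e-08) and 1.46 ± 0.17 (adjusted p = 7.27e-07). With NanogWT, Dnmt1 stayed between 9.19 and 17.4 FPKM in all 16 libraries. The summed FPKM of 20 genes of replication and cell cycle moved with these 2 members, at 693 to 748 at D7, 1299 to 1395 at D10 and 994 to 1154 at D12 with NanogBiD and 260 to 296, 227 to 375 and 330 to 374 with NanogWT, with none at 0. Their part in the result was not tested.

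With NanogBiD the highest mean of Dnmt3a was at D7, that of Dnmt3b at D8 (1 library) and that of Dnmt3l at D12, and with NanogWT they were at D8, D12 and D10, an order that was not tested. Dnmt3b was at 15.2 FPKM in the single NanogBiD library of D8, at 16.2 and 10.3 at D10 and at 10.3 and 6.93 at D12, while NanogWT reached 0.758 and 1.77 at D10 and 0.959 and 1.95 at D12. The libraries of the combinations did not overlap, which was not counted over all genes. The Dnmt3b differences were 2.66 ± 0.24 (adjusted p = 2.37e-08) and 1.98 ± 0.24 (adjusted p = 1.11e-06). The D12 level was not called against D7 (0.32 ± 0.24, adjusted p = 0.301). Dnmt3l was at 0.189 and 0.161 FPKM at D7, 0.589 at D8, 8.23 and 3.47 at D10 and 18.5 and 4.00 at D12 with NanogBiD, and no NanogWT library exceeded 0.608. Dnmt3l thus passed the filter on low values only through the NanogBiD libraries of D10 and D12. It was higher by 2.00 ± 0.38 at D10 (adjusted p = 0.000166) and by 2.72 ± 0.38 at D12 (adjusted p = 6.83e-06), and its rise from D7 to D12 was 3.07 ± 0.38 (adjusted p = 1.72e-06). The NanogBiD libraries of D12 disagree: the difference was 1.74 ± 0.26 without replicate 1 and 3.70 ± 0.26 without replicate 2, and called each time. The mES library, at 36.4 FPKM, lay above both.

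Tet1 and Tet2 changed over the second phase. Tet1, the Tet enzyme of pluripotent cells, was at 10.7 and 11.8 FPKM with NanogBiD at D10 and at 15.0 and 15.1 at D12, against 1.05 and 2.33 and then 1.96 and 3.99 with NanogWT. It was higher by 2.23 ± 0.24 (adjusted p = 1.9e-07) and 2.06 ± 0.24 (adjusted p = 5.92e-07). Tet2, which is expressed in pluripotent and blood cells, was at 3.57 and 3.26 FPKM with NanogBiD at D7 and at 3.93 and 3.90 with NanogWT, a difference of -0.16 ± 0.25 (adjusted p = 0.708), and at D12 was at 11.0 and 8.44 against 2.68 and 4.28. The D12 difference was 1.27 ± 0.25 (adjusted p = 0.000304), and that of D10, 0.96 ± 0.25, lay under the fold limit (adjusted p = 0.00303). Both lay below mES at D12 (23.3 for Tet1, 20.2 for Tet2).

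Tdg was highest in NanogBiD cells, at 41.0 and 49.2 FPKM at D10 against 15.4 and 20.2 with NanogWT, a difference of 1.30 ± 0.17 (adjusted p = 2e-06), and at 36.5 and 41.4 against 24.0 and 23.8 at D12, where 0.68 ± 0.17 was under the fold limit (adjusted p = 0.00209). Its NanogBiD levels exceeded the 23.2 of mES, and the pseudogenes share them.

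From D7 to D12, 3 members rose with NanogBiD (Dnmt3l, Tet1, Tet2), against 11.6% of all genes called higher. Dnmt3l, also counted in the difference given below, passed the filter on low values only through the NanogBiD libraries of D10 and D12. With NanogWT no member was called in either direction, against 11.3%. There Dnmt3b and Tet1 differed by 0.84 ± 0.24 (adjusted p = 0.0127) and 0.85 ± 0.24 (adjusted p = 0.0105) under the fold limit. Both were called with a pseudocount of 0.1, after rescaling and without NanogWT D12 replicate 1, and without replicate 2 they stood at 0.54 and 0.48 (adjusted p = 0.194 and 0.22). The difference of these changes between the combinations was called for the same 3 members, against 6.78% called higher. It was 2.83 ± 0.54 for Dnmt3l (adjusted p = 0.000688), 1.43 ± 0.35 for Tet2 (adjusted p = 0.0062) and 1.099 ± 0.33 for Tet1 (adjusted p = 0.0218). The Tet1 call was lost in 8 of 15 alternatives, 5 of which left out a single library (each NanogBiD D12 library, NanogBiD D7 replicate 1, NanogWT D12 replicate 1 or NanogWT D7 replicate 2), with adjusted p over all of them of 0.00341 to 0.283.

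The make-up of both families therefore changed in NanogBiD cells. Tet3 held 69.9% ± 6.32 of the summed Tet FPKM in MEF (SD, n = 2) and 7.87% in mES, and Tet1 held 5.88% ± 0.431 and 49.3%. With NanogBiD, Tet3 went from a share of 78.7% ± 0.549 at D5 to 30.3% ± 7.55 at D12, and Tet1 went from 5.56% ± 0.593 to 42.3% ± 1.44, while the NanogWT libraries of D12 held 64.8% ± 11.9 Tet3 and 16.1% ± 6.87 Tet1. These shares are descriptions with no test. In the Dnmt3 family, Dnmt3a held 95.7% ± 0.271 at D5, 77.3% ± 3.66 at D7 and 47.5% ± 17.3 at D12 with NanogBiD and 88.4% ± 4.76 at D12 with NanogWT, against 9.16% in mES. The summed Dnmt3 FPKM at D12 was 35.9 with NanogBiD and 17.0 with NanogWT.

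**Figure D3:**
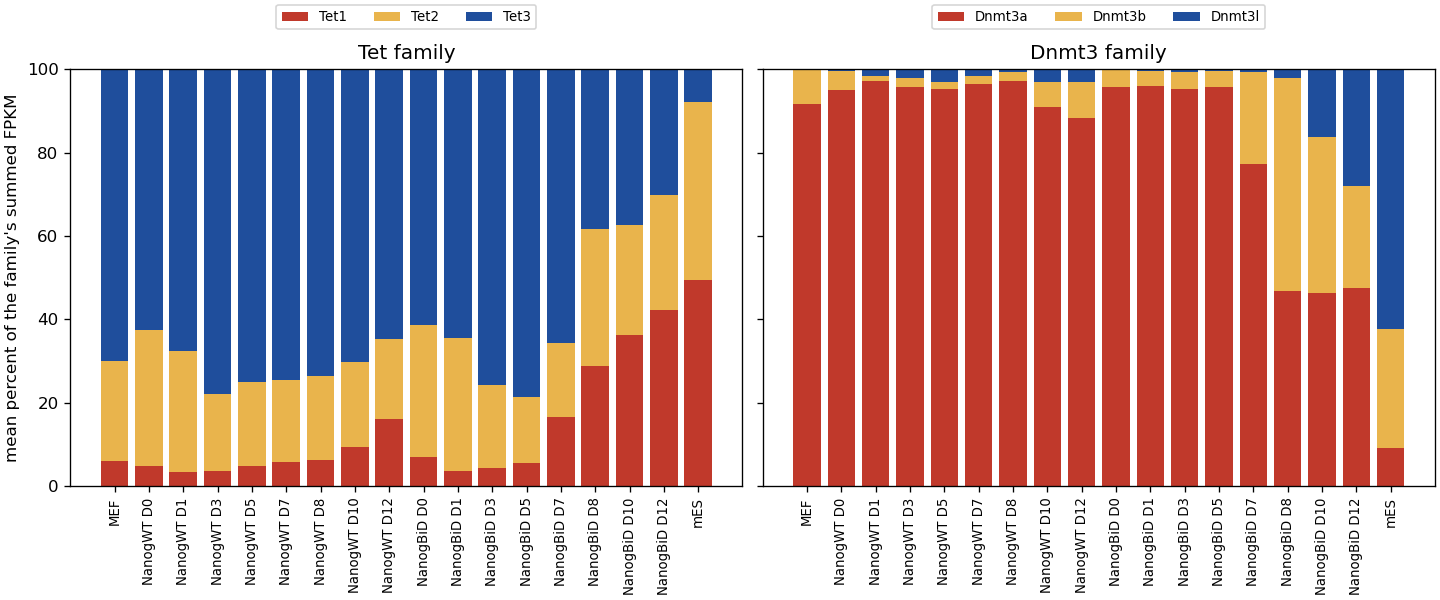
Mean share, in percent of the family's summed FPKM (vertical axis from 0 to 100), of Tet1, Tet2 and Tet3 (left) and Dnmt3a, Dnmt3b and Dnmt3l (right) in MEF, each combination and day, and mES (horizontal axis); bars are means of 2 libraries, 1 for NanogBiD D8 and mES. Tet3 and Dnmt3a dominate in MEF and with NanogWT, and hold 30.3% and 47.5% with NanogBiD at D12.

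Over the 16 time-course group means, the genes with the pattern most like that of a member were Brca1, Srrm1 and Nup188 for Dnmt1 (Pearson r 0.989 to 0.992) and Supt16, Ppat and Mcm10 for Uhrf1 (0.990 to 0.994). They were Sox13, Tfap2c and Slc29a2 for Dnmt3b (0.985 to 0.987), Tekt1, Gm33470 and Gsx1 for Dnmt3l (0.985), Camsap3, Zfp106 and Cecr2 for Tet1 (0.985 to 0.989), Cep95, Cspp1 and Ccnt2 for Tet2 (0.932 to 0.936) and Mapk4, Srgap2 and Htt for Tet3 (0.949 to 0.955). Tdg was most like its own pseudogene copies Tdg-ps2 (1.000) and Gm9855 (0.991). Among the members, Dnmt1 and Uhrf1 correlated at 0.974 and Dnmt3a and Tet3 at 0.863, and the group means share the libraries and their depth.

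Genes around the members were taken by list. The shares of all genes called higher and lower with NanogBiD, against which each list count is to be read, were 5.79% and 4.65% at D7 and 13.5% and 9.97% at D12. Of the 12 other genes of maintenance and de novo methylation, 4 were higher with NanogBiD at D7 and 6 at D12 and none lower, with a median log2 difference of 0.66 and 1.01. At D7 these included Cdca7 and Hells, partners in a chromatin remodeller needed for methylation, at 2.18 ± 0.30 and 1.78 ± 0.28 (adjusted p = 2e-05 and 7.19e-05). Of 18 tested genes of Tet partners and demethylation repair, 1 was higher at D7, a share near that of all genes, and 5 at D12, where 1 was lower, and the uracil glycosylase Ung was highest, at 2.62 ± 0.25 at D12 (adjusted p = 6.01e-08). None of the 7 methyl-CpG readers was called at D7, and at D12 the reader Zbtb4 was lower by -1.83 ± 0.21 (adjusted p = 5.74e-07) and no reader higher. In the supply of methyl donors and cofactors, 3 of 13 tested genes were higher at D7 and 4 at D12, led at D7 by Ahcy, which clears the product of methyl transfer (1.68 ± 0.22, adjusted p = 9.27e-06), and at D12 by the folate enzyme Shmt1 (2.16 ± 0.31, adjusted p = 9.41e-06).

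Germline genes known to be silenced by promoter methylation followed late. None of the 8 tested of 14 was called at D7, and 6 were higher with NanogBiD at D12, led by Tuba3a (3.24 ± 0.23, adjusted p = 1.19e-09) and Rhox5 (3.19 ± 0.43, adjusted p = 4.19e-06). Genes of any list entered the test only with 1 FPKM in at least 2 fitted libraries, so the filter may favour genes that are high in late NanogBiD cells. The summed FPKM of the germline genes was 4.04 to 4.38 at D7, 21.4 to 36.3 at D10 and 51.5 to 104 at D12 with NanogBiD, 4.19 to 10.9 at D12 with NanogWT, 113 in mES and 1.53 to 1.81 in MEF. Of 7 tested genes of imprint protection and pluripotency regulation, 2 were higher at D7 and 4 at D12, and Dppa3, which keeps Uhrf1 off chromatin, stood at 2.47 ± 0.49 and 4.06 ± 0.49 (adjusted p = 0.000795 and 1.29e-06). At D12 all 12 fibroblast markers were lower with NanogBiD and all 11 pluripotent markers higher, and the summed fibroblast markers were 324 to 475 FPKM against 3333 to 3750. At D7 these counts were 3 of 12 lower and 10 of 11 higher, and 964 to 1180 FPKM against 1821 to 1908. Of 7 tested epithelial markers, 6 were higher at D7 and 7 at D12. Of 20 genes of replication and cell cycle, 14 were higher at D7 and 16 at D12, with a median of 1.31 and 1.63. Of other cell types, 1 of 5 primitive endoderm, 2 of 5 trophoblast and 1 of 7 macrophage and endothelial markers were higher at D12, and 1, 0 and 1 lower (at D7, 1, 2 and 0 higher and 1, 0 and 1 lower). Dnmt1, Uhrf1, Dnmt3b, Dnmt3l, Tet1 and Tet2, the members called higher at D12, moved with the pluripotent markers and opposite to the fibroblast markers. The part of these markers in the result was not tested.

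The iPSC libraries were not all free of fibroblast markers. The summed FPKM of the 12 markers was 1554 in NanogBiD iPSC1 replicate 9, which is 20.7% of the MEF mean, 487 in NanogWT iPSC1 replicate 3, 168 and 131 in NanogWT iPSC1 replicate 1 and NanogBiD iPSC1 replicate 8, and 2.69 to 49.6 in the other 8. The summed pluripotent markers were 2252 in the first of these and 3112 to 5620 in the other 11, with 3553 in mES. In this table the replicate number is the number in the label, which does not say whether it stands for a clone. Replicates 1 and 1-2 of NanogWT iPSC1 may share an origin, and line and passage cannot be told apart.

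In established iPSC, 7 of 9 members differed from MEF, against 40.7% of the 13312 genes tested in either direction. Higher were Dnmt1, Dnmt3b, Dnmt3l, Uhrf1, Tet1 and Tet2, and lower was Tet3, and the median of all genes was shifted by 0.22 on the log2 scale. Dnmt3b, Dnmt3l and Tet1 were under 1 FPKM in both MEF libraries and passed the filter on low values only through the iPSC libraries. Tet1 ran from 24.2 to 44.8 FPKM (median 38.9) in the 12 iPSC libraries against 0.563 and 0.418 in MEF, and the change was 4.59 ± 0.19 (adjusted p = 8.88e-10). Dnmt3b ran from 24.4 to 65.6 (median 47.9) against 0.808 and 0.680, a change of 4.78 ± 0.21 (adjusted p = 1.4e-09). Neither gene overlapped between the groups, which was not counted over all genes. Uhrf1 ran from 102 to 218 (median 172) against 20.9 and 18.4, up by 2.99 ± 0.19 (adjusted p = 3.29e-08), and Dnmt1 from 47.3 to 90.8 (median 71.9) against 27.2 and 24.5, up by 1.41 ± 0.17 (adjusted p = 7.49e-06). Tet2 ran from 13.6 to 23.2 (median 17.8) against 2.48 and 1.40, up by 2.72 ± 0.16 (adjusted p = 2.02e-08).

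Dnmt3l was listed at 0 in both MEF libraries and ran from 74.3 to 289 FPKM (median 104) in iPSC, which makes it a gene without a fold, called at an adjusted p of 7.62e-09. It passed the filter on low values only through the iPSC libraries. Tet3 ran from 0.620 to 3.54 (median 1.23) against 6.70 and 5.97, and fell by 1.63 ± 0.30 (adjusted p = 0.000301). Tdg, 16.9 to 29.3 (median 20.5) against 11.2 and 10.5, and Dnmt3a, 3.54 to 6.06 (median 4.61) against 7.97 and 6.27, differed by 0.86 ± 0.14 and -0.49 ± 0.16 with adjusted p of 0.000153 and 0.0155, and lay under the fold limit. In mES, quantified with these libraries, Tet3 stood at 3.50, Dnmt3b at 24.7, Tet1 at 19.97 and Dnmt3l at 66.6. Of the 12 iPSC libraries, 11 lay above this mES value for Dnmt3b and all 12 for Tet1 and Dnmt3l. Without NanogBiD iPSC1 replicate 9 the changes of Tet1, Dnmt3b, Tet3 and Dnmt1 were 4.61, 4.80, -1.64 and 1.45, all called.

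In iPSC against MEF 21.9% of all genes were called higher and 18.8% lower. The surrounding lists had 6 of 12 genes of the methylation machinery higher and 1 lower, led by Hells (2.82 ± 0.15, adjusted p = 9.48e-09) and with Uhrf2, a relative of Uhrf1, at -1.29 ± 0.19 (adjusted p = 6.65e-05). Of the Tet partner and repair genes 6 of 18 were higher and 1 lower, of the methyl donor genes 7 of 13 higher, and of the imprint and pluripotency regulators 5 of 7 higher. The methyl-CpG readers had 0 of 7 higher and 2 lower, Zbtb4 and Mbd2. Germline genes had 7 of 11 tested higher and replication genes 17 of 20, with medians of 1.72 and 1.81 beside 0.22 for all genes. All 12 fibroblast markers were lower and all 11 pluripotent markers higher, as were 7 of 8 epithelial, 1 of 5 primitive endoderm, 3 of 5 trophoblast and 3 of 3 tested macrophage and endothelial markers, with 3 endoderm and 1 trophoblast marker lower. Genes low in MEF could enter this test only through the iPSC libraries. In the germline, pluripotent, trophoblast, macrophage and endothelial lists the filter may therefore favour genes that are high in iPSC. Of the 11 pluripotent markers, 9 and 10 were under 1 FPKM in the 2 MEF libraries, and of the 7 trophoblast markers, 6 and 5.

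**Figure D4:**
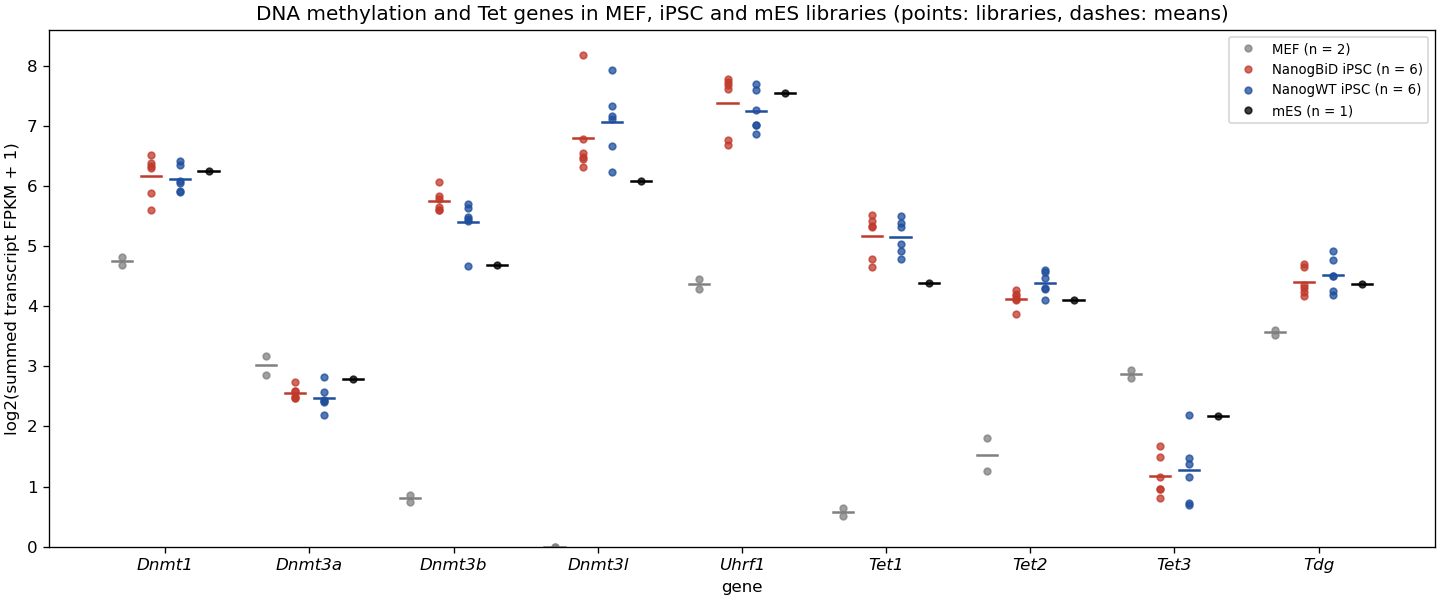
Log2(summed transcript FPKM + 1) of each member (vertical axis) in MEF (grey), NanogBiD iPSC (red), NanogWT iPSC (blue) and mES (black) libraries of the transcript table; points are libraries and dashes their means, and the genes stand on the horizontal axis. The 12 iPSC libraries lie below the MEF libraries for Tet3 and Dnmt3a and above them for the other members. Such separation was not counted over all genes, of which 40.7% were called. The red and blue points overlap for every gene.

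Between iPSC made by the different combinations no member was called. The comparison of NanogBiD with NanogWT iPSC called 0% of the genes (0 of 13312 by limma, with 227 at an unadjusted p under 0.05), and none of the 9 members reached an unadjusted p under 0.05, which does not show that the iPSC were alike. The nearest were Dnmt3b (0.34 ± 0.16, unadjusted p = 0.0559) and Tet2 (-0.26 ± 0.12, unadjusted p = 0.058). Between the lines iPSC1 and iPSC2, 0.789% of all genes and no member were called. An unadjusted p under 0.05 was found for 4 members (Dnmt1, Dnmt3l, Uhrf1, Tdg) and for 3085 of all 13312 genes. Dnmt3l differed by 0.67 ± 0.28 (adjusted p = 0.183). Uhrf1, the member with the lowest p, was at 133 ± 32.3 FPKM in iPSC1 (SD, n = 7) and 206 ± 9.90 in iPSC2 (SD, n = 5), a difference of -0.66 ± 0.14 (adjusted p = 0.0295) under the fold limit. Without NanogBiD iPSC1 replicate 9, the library with the most fibroblast marker RNA, it was -0.57 ± 0.14 (adjusted p = 0.0595). The 4 libraries with the highest marker sums are all iPSC1, and the 12 fibroblast markers had a median difference of 1.28 between the lines, with none called. Their part in the line differences was not tested beyond leaving out this library. The higher share among all called genes in this comparison was 56.2%, and 43.6% after quantile normalization.

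Within genes, 20 of the 41 member transcripts tested differed between iPSC and MEF, against 26.7% of 26937 transcripts, with 19 higher and 1 lower. Transcripts low in MEF could enter this test only through the iPSC libraries. The FPKM of transcripts that share exons are estimates from the same reads. Dnmt3l was carried by NM_001284197.1 and NM_019448.4, which held 70.8% and 28.6% of its pooled iPSC FPKM and 51.9% and 47.5% in mES. Both encode 421 residues and start near the printed window. NM_001081695.2, which starts farther upstream at chr10:78042287, was listed at 0 in 9 of 12 iPSC libraries and reached 1.68 FPKM at most. Tet1 in MEF was almost all XM_006513867.3 (98.0% of the pooled FPKM), and in iPSC XM_011243509.2, listed at 0 in both MEF libraries, held 51.2% (18.2 ± 4.82 FPKM, SD, n = 12). It held 71.5% in mES.

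At the Uhrf1 start printed above, the transcripts named next held a greater pooled share in pluripotent cells than in MEF, and shares were not tested. NM_001111078.1 and NM_001111080.1, which start at or just after it, held 12.4% and 10.4% in MEF, 28.5% and 33.6% in mES and 29.6% and 26.6% over the iPSC. They rose by 3.80 ± 0.76 (adjusted p = 0.00188) and 3.85 ± 0.65 (adjusted p = 0.00055). XM_006523799.1 and XM_006523800.1 were also called higher, and their starts are not known, so the whole share of each start is not known. NM_010931.3, from the upstream start, held 41.0% in MEF and 14.8% over the iPSC, and its values were spread: 17.4% and 67.9% in the MEF libraries and 2.80% to 76.6% among the iPSC. The Dnmt1 transcript NM_001199432.1, from the farthest upstream start, was listed at 0 in all 15 libraries. NM_010066.4, the 1 Dnmt1 transcript called in iPSC against MEF, was matched to the start at chr9:20952979, whose window held no E2F-type motif. NM_001199431.1 and NM_001314011.1, matched to the same start, were not called (adjusted p = 0.222 and 0.149). NM_001199433.1, which starts within the printed Dnmt1 window at chr9:20952605, was not called either (adjusted p = 0.488).

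Tet3 NM_183138.2, which encodes 1668 residues, was the transcript that fell, by 2.16 ± 0.29 (adjusted p = 9.22e-05). It was at 3.40 and 5.98 FPKM in MEF, at 0 in 5 of 12 iPSC libraries and at 1.51 at most, while mES held 3.13. The main Tet3 transcript of iPSC was XM_017321465.1 (1.07 ± 0.863 FPKM, SD, n = 12), which was at 0.0349 in mES. For Dnmt3a, the long NM_007872.4 (908 residues) and the short NM_153743.4 (689 residues, from a start within the gene at chr12:3891744) held 71.6% and 28.4% in MEF, 36.7% and 31.5% in mES and 55.0% and 36.9% over the iPSC. The short form ran from 0% to 78.5% among the iPSC libraries, and neither was called (adjusted p = 0.0682 and 0.758).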

How the data were processed

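RNA-seq was made from 31 time-course libraries, 12 iPSC libraries, 2 MEF and 1 mES. The authors state Trim Galore 0.6.4 for trimming, HISAT2 2.2.1 for alignment to mm10 and StringTie 2.2.1 for quantification. The deposited values are FPKM, per gene and per transcript, with replicates kept apart. The annotation and the use of strand are not given in the sources used here. FPKM are not counts, so limma 3.58.1 (R 4.3.3) was fitted to log2(FPKM + 1) after removal of genes that reached 1 FPKM in fewer than 2 fitted libraries (leaving 16842 in the time course, 13312 summed genes and 26937 transcripts in the iPSC table). Log2 differences on this scale understate changes of low genes. Calls needed both a 2-fold difference (1 on the log2 scale) and a p under 0.05 after Benjamini-Hochberg adjustment over all genes. The time-course model had 16 group means, the iPSC model 4 iPSC groups and MEF, and mES entered neither. MEF and mES were quantified separately in each table, so tests were made within a table. The models were tested on simulated data. Relative depth came from single-read steps of low FPKM. All 9 genes were reported. From each list at most the 2 highest and 2 lowest called genes were named, the genes most alike were the 3 with the highest Pearson r over group means (for Dnmt3a not reported here), and transcripts were described if they held at least 10% of a member's FPKM in MEF, iPSC or mES; the other transcripts named were chosen after their values were seen. The members and lists were chosen with earlier results of these data known. Alternatives were another pseudocount, no filter, rescaling to a common total, quantile normalization, no fold limit and the compared groups alone. Further ones were a replicate block, the average of replicates 1 and 1-2 of NanogWT iPSC1, and leaving out each library. Promoters came from RefSeq (GRCm38.p6), where all 9 members matched, and coordinates from GENCODE M21. Python 3.11.15 with pandas 2.3.3, numpy 2.4.6 and matplotlib 3.10.9 was used for the other steps.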

Additional observations from a re-analysis of the deposited data

Results flagged for a closer look

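In the 6 NanogBiD iPSC libraries, Dnmt3l stood at 289 FPKM in iPSC1 replicate 4, far from the 78.8 to 109 of the other 5. In the 6 NanogWT iPSC libraries, Dnmt3b stood at 24.4 FPKM in iPSC1 replicate 2, below the 41.8 to 51.0 of the other 5. Of 18 such groups examined 2 were marked, where chance marks about 1 in 20. Without these libraries in turn, Dnmt3l and Dnmt3b stayed called in iPSC against MEF, the latter with a change of 4.84 ± 0.12, and Dnmt3l has no fold because both MEF libraries are at 0.

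By the interaction term of the limma model, the change from D0 to D7 differed between the combinations for Dnmt3b (2.47, higher with NanogBiD) and Uhrf1 (1.19). The change from D7 to D12 differed for Dnmt3l (2.83), Tet2 (1.43) and Tet1 (1.099), where the deeper NanogWT libraries of D12 take part. Dnmt3l entered this test only through the NanogBiD libraries of D10 and D12.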

How the results depend on the processing

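Of 229 counts recomputed under the alternatives, 208 stayed within 1.5 times the main count, and no member changed its direction in a way that reversed a call. Of 1915 values of single members and transcripts, 16 lost their call (Uhrf1 in the difference of the change from D0 to D7, and Tet1 in that from D7 to D12) and 47 gained one. Transcript calls lost when a library was left out are not among these 16 and show only in the transcript count below. With a pseudocount of 0.1, 2 members were called at D5 (Dnmt3b higher and Dnmt3l lower with NanogBiD), 5 in D7 against D0 with NanogWT and 2 in D12 against D7 with NanogWT. After rescaling to a common total these last counts were 4 and 2. With no fold limit, 1 member was called at D3, 1 at D5, 6 at D7, 6 in D7 against D0 with NanogWT, 5 and 2 in D12 against D7 with NanogBiD and NanogWT, and 1 between the iPSC lines. The difference in the change from D0 to D7 kept 1 member (Dnmt3b) with no filter and in the compared groups alone, which have fewer samples, and ranged from 1 to 2 when single libraries were left out. Leaving out NanogWT D12 replicate 1 gave 2 called members in D12 against D7 with NanogWT (0 to 2 over these fits). Leaving out a library left the iPSC against MEF count at 7 and its transcript count at 15 to 20, lowest without MEF replicate 2. The cause was not tested in the other cases.

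The count of all genes called moved by more than 1.5 times in these cases. With a pseudocount of 0.1 it went from 128 to 196 at D0, 623 to 1011 at D3, 1091 to 1689 at D5, 1758 to 2716 at D7, 3171 to 4846 in D7 against D0 with NanogBiD and 105 to 244 between the iPSC lines. Between the lines it was 66 with no filter and 185 after rescaling, which gave 937 at D3. With no fold limit it was 321 at D0, 551 (from 224) at D1, 1709 at D3, 2755 at D5, 4779 at D7, 9358 (from 4676) at D10, 8546 (from 3946) at D12, 7381 and 6521 (from 2977) in D7 against D0 with NanogBiD and NanogWT, 7335 (from 3366) and 4185 (from 1899) in D12 against D7, 2684 (from 1698) and 3765 (from 2377) in the differences of the changes, 9508 (from 5420) for iPSC against MEF and 505 between the lines. The compared groups alone gave 0 at D0, D1 and D3 and 1100 in the difference from D0 to D7. It was 136 at D1 without NanogBiD D1 replicate 1, 654 at D0 without NanogWT D0 replicate 2, and 298, 65 and 206 between the lines without NanogBiD iPSC1 replicate 4, NanogBiD iPSC2 replicate 1 and NanogWT iPSC1 replicate 2.

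Same-numbered replicates of the combinations did not deviate together on every day (correlations of -0.065 to 0.395 over 7 days, highest at D7), so whether the numbers pair them is not known. The fit with a replicate block left every count as it was (for example 2 at D7 and 6 at D12). This block is common to all days, so it cannot show pairing within a day. iPSC against MEF could not be fitted apart from its model, which already holds these groups only. A left-out replicate leaves an arm with 1 library, assumed to vary like the others. Depth limits the low values of Dnmt3b, Dnmt3l and Tet1 before D7, and was unequal from D8.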
